A study of Homo sapiens with 32 samples.

Results

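Ishikawa-S33Y cells were compared after 24 h with paclitaxel and SM08502 together and after 24 h with vehicle. Ishikawa-S33Y is an established human endometrial cancer line that the labels give as CTNNB1-mutated, and S33Y names a substitution of beta-catenin, the protein that CTNNB1 encodes. The comparison rests on 4 of the 32 libraries of the series, 2 with the combination (6 nM paclitaxel and 85 nM SM08502) and 2 with vehicle (0.1% DMSO), chosen by cell line and treatment alone. The other libraries used here are the Ishikawa-S33Y cells given 6 nM paclitaxel or 85 nM SM08502 by itself, 2 of each, and Ishikawa cells on vehicle or on 11 nM paclitaxel with 80 nM SM08502, again 2 of each. Doses were set in each line to its own IC50 in a viability assay, per the labels' protocols, and whether Ishikawa-S33Y was grown from 1 clone is not given in the sources used here. Cells were plated in duplicate, and p values measure the spread between such duplicate cultures, pooled over the 16 groups of all 32 libraries.

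Paclitaxel is a taxane that binds beta-tubulin and stabilises microtubules, which holds dividing cells in mitosis. SM08502 blocks kinases of the CDC-like (CLK) family. These phosphorylate serine- and arginine-rich (SR) splicing proteins, and CLK transcripts are themselves regulated by alternative splicing. In the Wnt pathway, LRP5 and LRP6 are co-receptors for secreted Wnt proteins, a destruction complex marks beta-catenin for degradation, and the serine replaced in S33Y is among the residues phosphorylated for that purpose, so the substitution stabilises the protein. Stabilised beta-catenin drives transcription with TCF and LEF factors, and this pathway is often mutated in endometrial cancer.

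Values are reads per 1000000 counted (CPM), back-transformed from the deposited log10 values, and changes are differences of log2(CPM + 1) with their standard error (SE). With 2 libraries in a group, both values are printed in place of a standard deviation. The vehicle libraries held 20.29 and 23.85 M reads (M, 1000000) and the combination libraries 19.46 and 2.99 M, so combination replicate 2 stands apart by its depth. In it 1 read is worth 0.334 CPM, 10 CPM is 30 reads against 195 in combination replicate 1, and a gene with no read may be as high as 1.003 CPM (3 reads, counting error only). Counts over the whole table are therefore given for 10215 well-expressed genes, with a mean of at least 10 CPM over the 8 Ishikawa-S33Y libraries. The fit and the adjustment of p cover all 17011 genes tested, and the counts of each gene list cover its tested members at any level. The combination replicates differed by 0.297 (log2, root mean square over the well-expressed genes), the vehicle replicates by 0.116, the SM08502 replicates by 0.121 and the paclitaxel replicates by 0.099. The fit gives each gene 1 spread for all groups. SE and p values of contrasts with the combination may therefore be too small, above all for genes whose 2 combination values lie apart. The share of mitochondrial reads was 13.23 and 13.56% with vehicle and 13.67 and 14.26% with the combination. Markers of endometrial epithelium summed to 3722 and 3641 CPM in the vehicle libraries. Those of endothelium summed to 7.88 to 10.9 CPM and those of immune cells to 6.41 to 6.75 CPM, and the stromal list summed to 1168 and 1140 CPM, of which the collagen gene COL1A1 made up 1158 and 1131 CPM.

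The combination changed the level of nearly as many well-expressed genes as it left uncalled. Of the 10215, 2752 rose (26.9%) and 2180 fell (21.3%) at an adjusted p under 0.05, and 5283 were not called. The falls were larger than the rises. At least 2-fold falls numbered 590 and at least 2-fold rises 312, and at 4-fold 44 genes fell and 2 rose. Both of the latter, CCDC150P1 and CMYA5, were under 2 CPM with vehicle and reached the mean of 10 CPM through the libraries in which they were high. Both combination libraries lay above both vehicle libraries for 44.3% of these genes and below both for 36.4%. Over all 17011 genes tested, 24% rose and 18% fell, with a median change of 0.06.

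The balance of rises and falls depended on the scaling. Rises made up 55.8% of the calls among well-expressed genes, but 42.4% after TMM scaling and 39.4% after median-of-ratios scaling, which moved the median of all genes by -0.085 and -0.102. Falls of 2-fold or more outnumbered such rises under every scaling. Without combination replicate 2, 2196 well-expressed genes rose and 1774 fell.

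**Figure D1:**
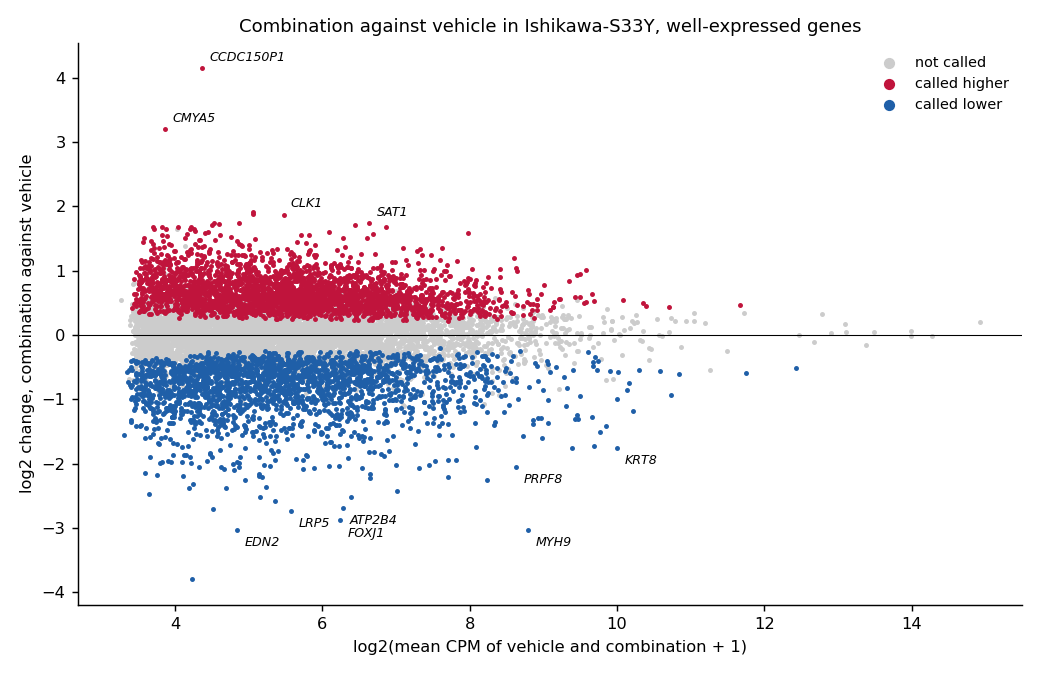
Log2 change between combination and vehicle (y axis) against the log2 mean level of both groups (x axis) for the 10215 well-expressed genes, 1 point per gene, with the 2752 genes called higher in red and the 2180 called lower in blue. The cloud reaches further down than up: 44 genes fell at least 4-fold, whereas 2 genes, CCDC150P1 and CMYA5, which pass the level of 10 CPM through the treated libraries, rose that much.

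The largest rise was that of CCDC150P1, a pseudogene that overlaps CLIP1 in the RefSeq annotation. It stood at 1.33 and 1.05 CPM in the vehicle libraries and at 43.7 and 32.4 CPM in the combination libraries (log2 change 4.14 ± 0.34 SE, adjusted p = 1.45e-08). All of its combination values lay far above the vehicle values, but reads of CLIP1 and of the pseudogene may be assigned to either, and CLIP1 itself, which encodes a protein of growing microtubule ends, was not called (log2 change 0.47 ± 0.24 SE, adjusted p = 0.121). CMYA5, a large muscle-associated protein gene, went from 1.92 and 1.80 to 27.1 and 23.4 CPM (log2 change 3.19 ± 0.40 SE, adjusted p = 2.41e-06). CLK1, one of the kinases that SM08502 inhibits, went from 17.6 and 18.6 to 71.5 and 66.2 CPM (log2 change 1.87 ± 0.14 SE, adjusted p = 5.3e-09). Neither gene had overlapping groups, and the shallow library lay close to the deep one in each.

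Genes of neddylation, polyamine and glutamate handling were also among the 12 largest rises. DCUN1D2, which helps attach NEDD8 to cullins, was at 13.8 and 12.6 CPM with vehicle and 50.2 and 52.2 CPM with the combination (log2 change 1.88 ± 0.11 SE, adjusted p = 6.02e-10). SAT1, which acetylates spermidine and spermine, was at 44.4 and 45.4 and then 150.3 and 154 CPM (log2 change 1.74 ± 0.13 SE, adjusted p = 4.86e-09). SLC1A3, a glutamate transporter, was at 9.56 and 9.73 and then 34.9 and 34.4 CPM (log2 change 1.75 ± 0.13 SE, adjusted p = 4.02e-09). In all 3 the replicates of each group lay within a narrow band and the groups did not overlap. SLC1A3, like PYURF below, was under 10 CPM with vehicle and reached the mean of 10 CPM through libraries in which it was higher. The zinc finger gene ZNF519 rose by 1.92, LCORL by 1.71, the dynein heavy chain domain gene DNHD1 by 1.68, and the pseudogenes TPM3P9 and VDAC1P8 by 1.74 and 1.68 on the log2 scale. PYURF, which shares its locus with PIGY, was at 9.36 and 8.05 CPM with vehicle but at 18.7 and 50.1 CPM with the combination (log2 change 1.71 ± 0.62 SE, adjusted p = 0.0323). Without the shallow combination replicate 2 its change was 1.02 with an adjusted p of 0.317, and the call was also lost without either vehicle library.

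The largest falls included genes of the cell cortex, cell adhesion and the cell surface. MYH9, the heavy chain of nonmuscle myosin IIA, fell from 783 and 801 CPM to 92.6 and 99.3 CPM (log2 change -3.03 ± 0.43 SE, adjusted p = 1.26e-05). MYH14, the heavy chain of nonmuscle myosin IIC, fell from 145 and 139 to 23.6 and 24.4 CPM (log2 change -2.51 ± 0.48 SE, adjusted p = 0.000299). The 2 combination libraries were nearly equal for both myosins and far below vehicle. ITGB5, the integrin beta 5 subunit, fell from 59.9 and 58.5 to 11.7 and 7.69 CPM (log2 change -2.52 ± 0.19 SE, adjusted p = 5.3e-09). CELSR1, a cadherin of planar cell polarity, fell from 222 and 209 to 44.96 and 34.8 CPM (log2 change -2.42 ± 0.25 SE, adjusted p = 3.14e-07). LOXL4, an enzyme that crosslinks collagen and elastin, fell from 68.6 and 69.6 to 10.5 and 11.03 CPM (log2 change -2.57 ± 0.20 SE, adjusted p = 7.18e-09). In each of these genes both combination values lay far below both vehicle values.

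LRP5, the Wnt co-receptor, fell from 83.98 and 79.4 CPM to 13.98 and 9.36 CPM (log2 change -2.73 ± 0.33 SE, adjusted p = 1.39e-06). FOXJ1, the transcription factor of motile cilia and a marker of ciliated endometrial cells, fell from 139 and 125 to 19.7 and 14.7 CPM (log2 change -2.88 ± 0.20 SE, adjusted p = 2.77e-09). EDN2, which encodes endothelin-2, fell from 51.3 and 48.3 to 3.65 and 7.36 CPM (log2 change -3.03 ± 0.20 SE, adjusted p = 1.22e-09). For LRP5 and FOXJ1 the shallow library was the lower of the combination values, and for EDN2 it was the higher. The plasma membrane calcium pump ATP2B4 fell by 2.68 and the membrane repair gene DYSF by 2.70 on the log2 scale. CHST1, a sulfotransferase, fell by 2.46, with only 5 reads behind its value in combination replicate 2.

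**Figure D2:**
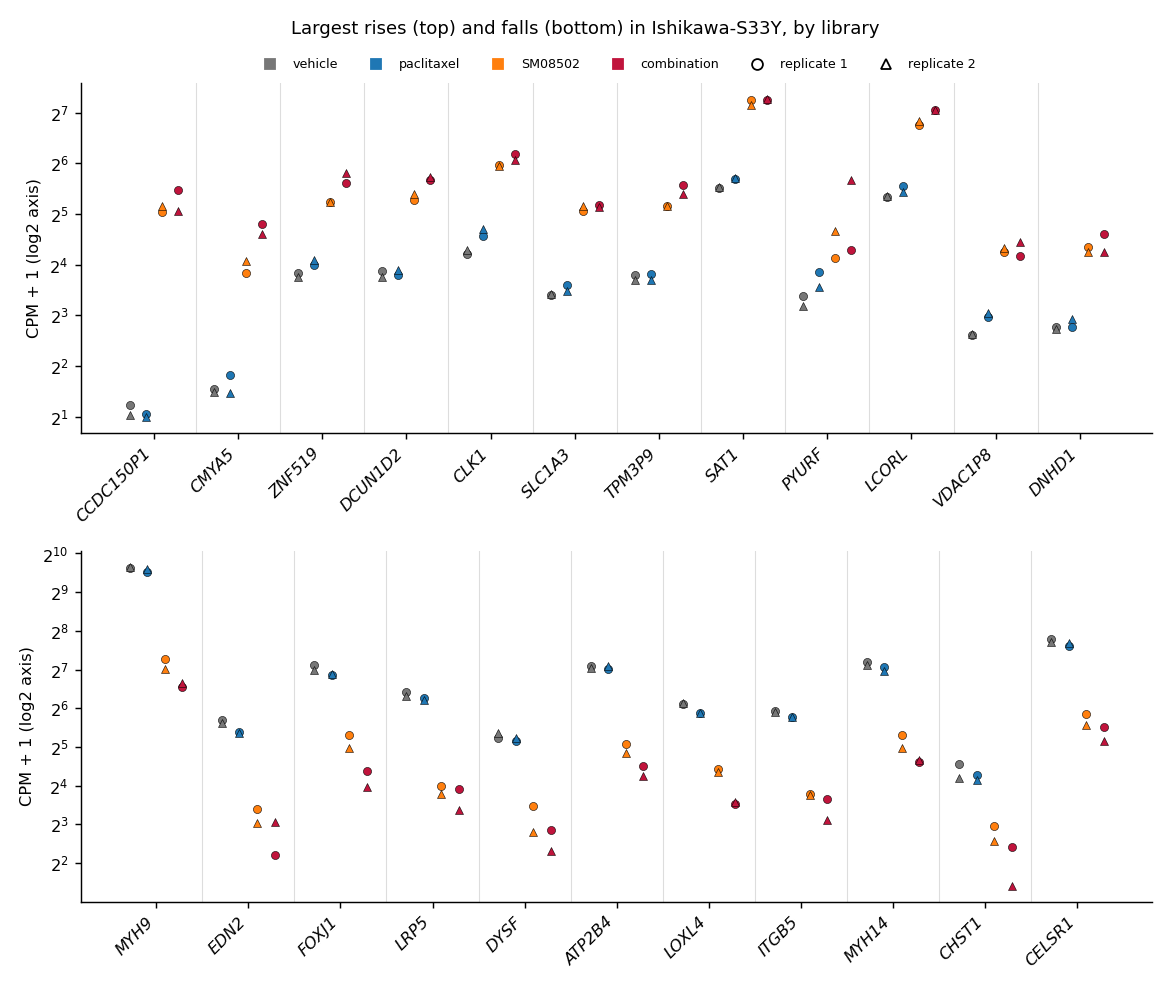
Level of each gene as CPM + 1 on a log2 axis in the 8 Ishikawa-S33Y libraries, for the 12 largest rises (upper panel) and 11 of the largest falls (lower panel); colours are treatments and the symbol is the replicate. Paclitaxel libraries sit near vehicle, and SM08502 libraries sit near the combination. In PYURF combination replicate 2 lies apart from replicate 1, and in EDN2, ITGB5 and LRP5 the combination replicates also differ.

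Among 14 splicing kinases, 7 rose and 1 fell, against 24% and 18% of all genes tested. Their median change was 0.18, against 0.06 for all genes tested. CLK4 went from 8.13 and 7.55 to 26.7 and 27.7 CPM (log2 change 1.67 ± 0.16 SE, adjusted p = 1.37e-07) and CLK3 from 40.7 and 41.5 to 80.2 and 81.2 CPM (log2 change 0.96 ± 0.15 SE, adjusted p = 3.06e-05). Like CLK1, both had higher values in each combination library than in either vehicle library. CLK2 was at 24.3 and 24.4 CPM and then 30.6 and 31.1 CPM (log2 change 0.33 ± 0.12 SE, adjusted p = 0.0337), a call that was lost without any 1 of the 4 libraries (adjusted p from 0.0765 to 0.114) and under TMM scaling (0.127). SRPK2, HIPK3 and DYRK1A also rose, and DYRK1B was the member that fell (log2 change -0.75 ± 0.27 SE, adjusted p = 0.0325), a call lost without combination replicate 1 (0.188) or without either vehicle library.

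Among 20 genes of SR and SR-like proteins, which the CLK enzymes phosphorylate, 4 rose, 4 fell and 12 were not called, shares near the 24% and 18% of all genes tested. Without vehicle replicate 1 the falls numbered 1, and without either combination library 2. PNN, which encodes the splicing-associated protein pinin, went from 75.9 and 75.7 to 198 and 194 CPM (log2 change 1.36 ± 0.23 SE, adjusted p = 7.26e-05), and SRSF6 from 176 and 175 to 349 and 305 CPM (log2 change 0.89 ± 0.08 SE, adjusted p = 9.41e-08). SRSF10 and TRA2B rose as well. SRSF1 went from 300.0 and 298 to 208 and 232 CPM (log2 change -0.44 ± 0.09 SE, adjusted p = 0.000693), and SRSF2, SRSF8 and SRSF12 fell by less. The calls of SRSF8 and SRSF12 were lost without combination replicate 2 (adjusted p = 0.0629) and without replicate 1 (0.199), respectively. Of 20 hnRNP genes, which encode proteins that bind nascent RNA, 5 rose and 3 fell, with 1 fall without either vehicle library or combination replicate 1. HNRNPR rose from 136 and 132 to 263 and 270.5 CPM (log2 change 0.99 ± 0.10 SE, adjusted p = 2.97e-07) and HNRNPD fell from 121 and 131 to 72.3 and 80.6 CPM (log2 change -0.71 ± 0.13 SE, adjusted p = 0.000218). The direction of both lists' medians changed between scalings, from 0.03 to -0.11 for the SR list and from 0.10 to -0.07 for the hnRNP list.

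In the core spliceosome 3 of 22 genes rose and 6 fell, with 1 rise without vehicle replicate 2 or combination replicate 1 and 3 falls without combination replicate 2. Over all genes tested 24% rose and 18% fell. PRPF8, the largest protein at the catalytic centre, fell from 622 and 653 to 146 and 161 CPM (log2 change -2.04 ± 0.25 SE, adjusted p = 1.62e-06). U2AF2, which recognises the polypyrimidine tract before the 3′ splice site, fell from 155 and 162 to 77.9 and 57.5 CPM (log2 change -1.23 ± 0.20 SE, adjusted p = 6.12e-05). SF3B1, the branch point factor, rose from 261 and 261 to 359.7 and 385 CPM (log2 change 0.51 ± 0.12 SE, adjusted p = 0.00188). The groups did not overlap for these 3 genes. SNRNP200, the helicase that works with PRPF8, fell by 0.73, and its call was lost without any 1 of the 4 libraries (adjusted p from 0.0621 to 0.102).

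Nonsense-mediated decay removes transcripts with premature stop codons. Of its 14 listed factors 7 rose and none fell, against 24% and 18% of all genes tested, with a median of 0.37. UPF3B went from 11.4 and 9.77 to 28.5 and 30.1 CPM (log2 change 1.39 ± 0.23 SE, adjusted p = 5.61e-05), UPF3A rose by 0.97 and RBM8A, a core member of the exon junction complex, by 0.87. UPF1, the central helicase, was at 87.5 and 92.1 CPM and then 86.8 and 107 CPM and was not called (log2 change 0.10 ± 0.26 SE, adjusted p = 0.796). TMM and median-of-ratios scaling gave 5 rises and 1 fall in this list.

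Among 16 kinases and cyclins of transcription 10 rose and none fell, against 24% and 18% of all genes tested, with a median of 0.61. CDK10, CDK11A, CDK11B, CDK12, CCNK and MNAT1 were not called. In 15 of the 16 both combination libraries lay above both vehicle libraries, against 44.3% of well-expressed genes. CDK9, the kinase of the elongation factor P-TEFb, went from 28.1 and 27.00 to 69.4 and 65.5 CPM (log2 change 1.26 ± 0.13 SE, adjusted p = 2.17e-07). Its cyclin partner CCNT2 went from 34.99 and 35.4 to 81.6 and 83.6 CPM (log2 change 1.21 ± 0.09 SE, adjusted p = 4.4e-09), and HEXIM1, which holds P-TEFb inactive, from 82.9 and 86.99 to 172 and 140.4 CPM (log2 change 0.87 ± 0.22 SE, adjusted p = 0.00347). CDK9 and CCNT2 were about as far apart from vehicle in the shallow library as in the deep one. Without combination replicate 2, 9 members rose and none fell, and under TMM and median-of-ratios scaling 9 and 8 rose.

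In 19 of 20 genes of mitosis and the spindle checkpoint both combination libraries lay above both vehicle libraries, against 44.3% of well-expressed genes. Their median change was 0.68, against 0.06 for all genes tested. Of the 20, 14 rose and none fell, against 24% and 18% of all genes tested. The count was 12 without combination replicate 2, 15 without replicate 1 and 14 after TMM or median-of-ratios scaling. TTK, the kinase that starts the spindle checkpoint, went from 59.04 and 61.96 CPM to 133 and 162 CPM (log2 change 1.26 ± 0.16 SE, adjusted p = 2.58e-06). CDC20, the activator of the anaphase-promoting complex, went from 104 and 107 to 209 and 217 CPM (log2 change 1.01 ± 0.11 SE, adjusted p = 4.98e-07), and TOP2A, which untangles DNA before division, from 490.3 and 495 to 883 and 1028 CPM (log2 change 0.95 ± 0.20 SE, adjusted p = 0.000698). Cyclin B1, encoded by CCNB1, went from 262 and 266 to 412 and 427 CPM (log2 change 0.66 ± 0.15 SE, adjusted p = 0.00108). The spread within each group was small beside these differences. AURKA, BUB1, CCNA2, CCNB2, CENPF and KIF11 were not called.

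The promoters of the mitotic list were searched for 1 sequence motif. CCAAT boxes are bound by the factor NF-Y and are known from many cell cycle promoters. In the RefSeq promoters of GRCh38.p14, 16 of the 20 genes had an entry, and CCAAT (either strand) stood within the 250 bases before the annotated start in 13 of them (81.2%), against 33% of 27305 promoters of all genes. Of the 11 with an entry that rose 8 held it, as did all 5 with an entry that were not called. The motif was chosen with the changes known, and a match is a description of the letters only. The 150 bases before the start, 5′ to 3′ on the strand of the gene, are printed with each CCAAT, or ATTGG where it lies on the other strand, in capitals. They are CCNB1 at chr5:69167000-69167149 on the plus strand, CDC20 at chr1:43358831-43358980 on the plus strand, TOP2A at chr17:40417897-40418046 on the minus strand and PLK1 at chr16:23678739-23678888 on the plus strand.
CCNB1: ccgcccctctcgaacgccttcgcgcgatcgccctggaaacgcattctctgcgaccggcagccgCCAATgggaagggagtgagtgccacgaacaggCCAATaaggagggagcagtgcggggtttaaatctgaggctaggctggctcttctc
CDC20: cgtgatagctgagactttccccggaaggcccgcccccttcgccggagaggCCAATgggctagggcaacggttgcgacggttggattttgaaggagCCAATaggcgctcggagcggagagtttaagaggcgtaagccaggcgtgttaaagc
TOP2A: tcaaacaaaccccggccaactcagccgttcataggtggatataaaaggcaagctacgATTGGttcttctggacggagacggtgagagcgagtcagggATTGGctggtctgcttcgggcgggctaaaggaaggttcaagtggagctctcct
PLK1: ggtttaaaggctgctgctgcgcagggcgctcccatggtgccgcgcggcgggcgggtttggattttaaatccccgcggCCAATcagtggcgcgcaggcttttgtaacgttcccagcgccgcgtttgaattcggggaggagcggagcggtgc

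Tubulin genes, whose products are the target of paclitaxel, were called in both directions with the combination. TUBB3, the neuronal beta-tubulin isotype, stood at 55.5 and 52.4 CPM with vehicle, 72.8 and 70.8 CPM with paclitaxel, 26.7 and 24.4 CPM with SM08502 and 29.6 and 30.4 CPM with the combination. It fell with the combination (log2 change -0.82 ± 0.11 SE, adjusted p = 3.26e-06), and both combination values lay below both vehicle values. TUBA4A followed the same order, from 175 and 169 to 123 and 131 CPM (log2 change -0.44 ± 0.10 SE, adjusted p = 0.000948), with 204 and 210.1 CPM under paclitaxel. The paclitaxel libraries were the highest for both genes, though neither was called for paclitaxel against vehicle. TUBB2A rose from 17.1 and 15.7 to 33.1 and 28.1 CPM (log2 change 0.86 ± 0.17 SE, adjusted p = 0.000413) and TUBA1C from 481 and 487 to 745 and 688 CPM (log2 change 0.56 ± 0.12 SE, adjusted p = 0.000656). TUBB, the main beta-tubulin gene of most dividing cells, was at 939 and 988 CPM and then 1315 and 1038 CPM and was not called (log2 change 0.28 ± 0.15 SE, adjusted p = 0.142). Of 19 tubulin and microtubule-binding genes 5 rose (26.3%) and 3 fell (15.8%), near the 24% and 18% of all genes tested. The number of rises dropped to 2 under TMM or median-of-ratios scaling. MAPRE1, TUBA1B and STMN1, which encodes the tubulin-sequestering protein stathmin, were the other rises, and TUBG1 was the other fall. TUBG1 was not called with limma voom on recovered reads (adjusted p = 0.0795). Its change of -0.315 was -0.223 without combination replicate 2.

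**Figure D3:**
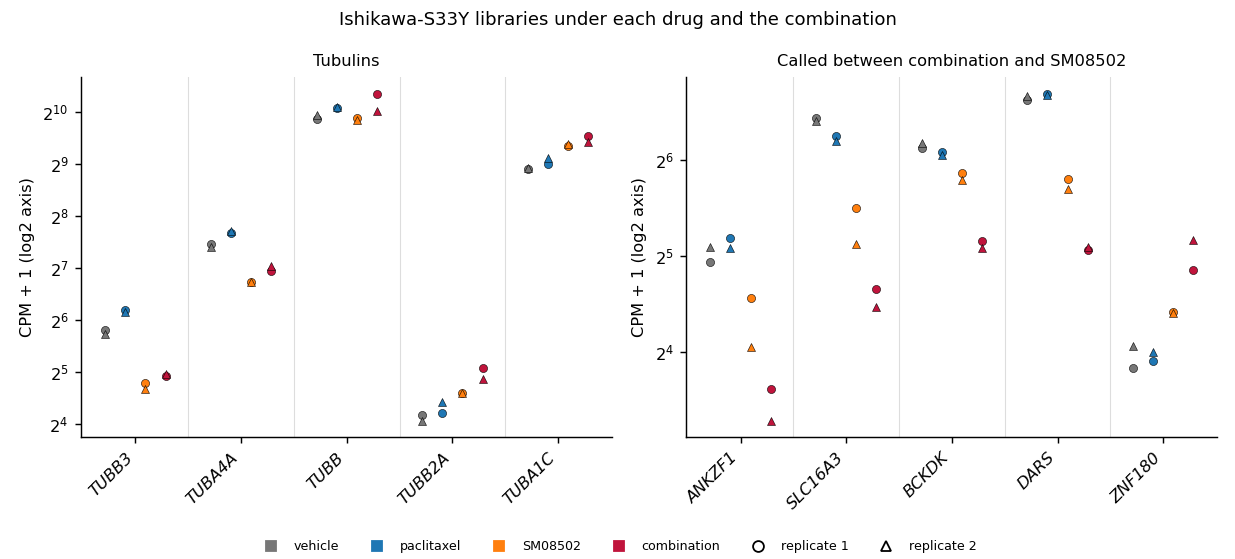
CPM + 1 on a log2 axis in the 8 Ishikawa-S33Y libraries by treatment (colour) and replicate (symbol), for 5 tubulin genes (left) and for 5 of the 7 well-expressed genes called between the combination and SM08502 (right). TUBB3 and TUBA4A are highest with paclitaxel and lowest with SM08502, and ANKZF1, SLC16A3, BCKDK and DARS step down from vehicle to SM08502 and again to the combination.

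At the cell surface end of the Wnt pathway 8 of 28 ligand, secretion and receptor genes fell and 1 rose. Over all genes tested 18% fell and 24% rose. Besides LRP5, WNT7A, a ligand of the uterine epithelium, fell from 59.8 and 60.5 to 15.7 and 18.1 CPM (log2 change -1.78 ± 0.16 SE, adjusted p = 3.8e-08). PORCN, which acylates Wnt proteins so that they can be secreted, fell from 11.9 and 11.9 to 5.34 and 3.34 CPM (log2 change -1.30 ± 0.21 SE, adjusted p = 4.16e-05), and WLS, which carries them to the surface, from 232 and 254 to 114 and 118 CPM (log2 change -1.06 ± 0.20 SE, adjusted p = 0.0002). All 3 had lower values in each combination library than in either vehicle library. LRP6, the close relative of LRP5, was the member that rose, from 169 and 168 to 210.0 and 225 CPM (log2 change 0.37 ± 0.12 SE, adjusted p = 0.0186), but it was not called under TMM scaling (adjusted p = 0.0577) or without combination replicate 2 (0.112). None of the 10 frizzled genes was called. Of the 16 members that are well-expressed 4 fell. Without combination replicate 2, 6 members fell and none rose, and without vehicle replicate 1, 5 fell.

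Genes of the destruction complex and of nuclear beta-catenin partners were mostly not called: 3 of 19 fell and none rose. The shares over all genes tested were 18% and 24%. CTNNB1 was at 214 and 207 CPM with vehicle and 232 and 232 CPM with the combination (log2 change 0.14 ± 0.12 SE, adjusted p = 0.356) and was called higher when the line was fitted alone (adjusted p = 0.0379). APC, AXIN1, GSK3A and GSK3B were not called. The members that fell were DVL1 and DVL2, which pass the signal from the receptors, and TCF7L1, a largely repressive TCF. The TCF7L1 call was lost without any 1 of the 4 libraries, and that of DVL1 without combination replicate 2 or without either vehicle library. Without either vehicle library or combination replicate 2, 1 member fell. Among 18 measured feedback targets of beta-catenin 1 rose and 3 fell, with 1 fall without vehicle replicate 1. AXIN2, the most widely used target gene, was at 23.7 and 21.7 CPM and then 19.4 and 15.7 CPM and was not called (log2 change -0.36 ± 0.18 SE, adjusted p = 0.107). It was called lower under TMM (adjusted p = 0.0187) and median-of-ratios scaling (0.0107), and also with median re-centring, quantile normalization, a replicate block or the line fitted alone (0.033 to 0.0488). LEF1 (log2 change 0.10 ± 0.22 SE, adjusted p = 0.74) and MYC (log2 change -0.03 ± 0.13 SE, adjusted p = 0.876) were not called either. CCND1, the cyclin D1 gene, was at 1275 and 1211 CPM with vehicle and 830.3 and 835 CPM with the combination (log2 change -0.58 ± 0.22 SE, adjusted p = 0.0384), a call lost without any 1 of the 4 libraries (adjusted p from 0.0983 to 0.146). NOTUM and TNFRSF19 fell, the latter call being lost without combination replicate 1 or without vehicle replicate 1. DKK1, a secreted Wnt antagonist, rose from 7.54 and 6.71 to 13.1 and 19.7 CPM (log2 change 1.07 ± 0.16 SE, adjusted p = 2.69e-05).

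In G1 and S phase genes 5 of 24 rose (20.8%) and 6 fell (25%), against 24% and 18% of all genes tested. Leaving out 1 library gave 3 to 6 rises and 2 to 4 falls, with 2 falls without vehicle replicate 1 or combination replicate 2 and 3 without vehicle replicate 2, and the rises numbered 3 without either vehicle library or combination replicate 1. TMM and median-of-ratios scaling both gave 3 rises and 9 falls. CCNE1 fell from 32.1 and 31.3 to 16.6 and 19.7 CPM (log2 change -0.78 ± 0.12 SE, adjusted p = 3.07e-05), RB1 rose from 15.1 and 13.6 to 23.9 and 27.1 CPM (log2 change 0.79 ± 0.16 SE, adjusted p = 0.000457), and CDK2 rose by 0.53. MCM3, 1 of the 6 subunits of the replicative helicase, fell by 0.73, while the other 5 subunits were not called. Of 20 p53 targets 6 rose (30%, against 24% of all genes tested) and 1 fell (5%, against 18%). Among the 15 that are well-expressed 4 rose and 1 fell. FAS, a death receptor, rose from 8.48 and 8.13 to 13.7 and 21.4 CPM (log2 change 0.96 ± 0.16 SE, adjusted p = 6.54e-05), TIGAR by 0.89 and AEN by 0.83, whereas CDKN1A, the p21 gene, was at 17.1 and 14.6 and then 21.4 and 14.7 CPM and was not called (log2 change 0.16 ± 0.13 SE, adjusted p = 0.337) except without combination replicate 2 (higher, adjusted p = 0.0128). BAX was the fall (log2 change -0.27 ± 0.10 SE, adjusted p = 0.0289), a call lost without combination replicate 1 (adjusted p = 0.137) or without either vehicle library.

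In the BCL2 family, which sets the threshold of apoptosis, 3 of 14 genes rose (21.4%) and 1 fell (7.1%), against 24% and 18% of all genes tested. The fall was that of BCL2L1 (log2 change -0.33 ± 0.12 SE, adjusted p = 0.0344), a call lost without any 1 of the 4 libraries (adjusted p from 0.0516 to 0.169). The rise of BID (log2 change 0.30 ± 0.12 SE, adjusted p = 0.0418) was not called without combination replicate 2 (0.293), without either vehicle library or under any of the 4 other scalings. PMAIP1, which encodes the BH3-only protein NOXA, rose from 7.00 and 5.87 to 16.2 and 13.04 CPM (log2 change 1.07 ± 0.19 SE, adjusted p = 0.000105) and BCL2L11, the gene of BIM, from 37.01 and 34.5 to 54.6 and 46.8 CPM (log2 change 0.49 ± 0.13 SE, adjusted p = 0.00401). MCL1, the partner that NOXA binds, was at 140.1 and 139 and then 155 and 162 CPM and was not called (log2 change 0.18 ± 0.11 SE, adjusted p = 0.186) except with the line fitted alone (adjusted p = 0.0119). Both BH3-only genes were higher in each combination library, although BCL2L11 was not called without combination replicate 1 (adjusted p = 0.0547). Genes of homologous recombination and the damage kinases went both ways, with 6 of 20 higher (30%) and 4 lower (20%). These shares were near those of all genes tested (24% and 18%). Without vehicle replicate 2 or combination replicate 1 the falls numbered 2, and median-of-ratios scaling gave 3 rises. BRCA1 fell from 46.1 and 48.2 to 25.5 and 31.4 CPM (log2 change -0.72 ± 0.22 SE, adjusted p = 0.0115), which was not called without combination replicate 1 (0.0975), and FANCD2 and RAD51B fell by 0.61 and 1.13. XRCC3 and RAD51C, which also act in recombination, rose by 0.72 and 0.63.

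Targets of the integrated stress response, in which ATF4 drives amino acid and redox genes, were higher in 8 of 16 cases and lower in 3. Their median was 0.41, and over all genes tested 24% rose and 18% fell. ATF4 rose from 146 and 134 to 335 and 286 CPM (log2 change 1.14 ± 0.11 SE, adjusted p = 8.23e-08), its partner ATF3 from 3.45 and 3.44 to 9.09 and 12.4 CPM (log2 change 1.39 ± 0.15 SE, adjusted p = 3.66e-07), and the asparagine synthetase gene ASNS from 36.4 and 36.8 to 68.96 and 68.5 CPM (log2 change 0.89 ± 0.11 SE, adjusted p = 1.66e-06). The vehicle and combination values of these genes did not overlap in any library. CHAC1, NUPR1, TRIB3, PHGDH and PSAT1 were the other rises, whereas DDIT3, which encodes CHOP, was not called. VLDLR and DDIT4 fell by 1.45 and 1.42 and SHMT2 by 0.58. Without combination replicate 1, 5 rose and 4 fell, without replicate 2, 8 rose and 4 fell, and without either vehicle library 6 rose and 3 fell. TMM and median-of-ratios scaling gave 6 and 4.

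ATF4 and its relatives bind composite sites of the form TGATGNAA, where N is any base. These letters (either strand) stood within the 250 bases before the start in 3 of the 13 members with a RefSeq promoter entry, against 3.2% of all 27305 promoters. The members were ASNS, CHAC1 and ATF3, all of which rose. Stretches around the matches, with the motif, or its reverse complement TTNCATCA for CHAC1, in capitals, are ASNS at chr7:97872444-97872501 on the minus strand, CHAC1 at chr15:40953237-40953294 on the plus strand and ATF3 at chr1:212565191-212565248 on the plus strand. This motif, too, was chosen with the changes known.
ASNS: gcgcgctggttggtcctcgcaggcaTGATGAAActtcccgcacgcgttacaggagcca
CHAC1: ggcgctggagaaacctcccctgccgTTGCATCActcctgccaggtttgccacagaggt
ATF3: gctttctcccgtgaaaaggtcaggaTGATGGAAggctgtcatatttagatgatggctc

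Among 18 heat shock genes 6 rose (33.3%) and 3 fell (16.7%), against 24% and 18% of all genes tested. HSP90B1 and HSPA5, the major chaperones of the endoplasmic reticulum, fell from 1346 and 1381 to 665 and 707 CPM (log2 change -0.99 ± 0.19 SE, adjusted p = 0.000355) and from 644 and 703 to 474 and 476 CPM (log2 change -0.50 ± 0.13 SE, adjusted p = 0.0042). The cytosolic HSPA4 rose from 167 and 168 to 255 and 269.8 CPM (log2 change 0.65 ± 0.11 SE, adjusted p = 8.08e-05), and DNAJB4, DNAJA1, DNAJB1, HSPA8 and the mitochondrial HSPA9 rose too. HSPB1, a small cytosolic chaperone, was the other fall, a call lost without combination replicate 2 (adjusted p = 0.442). The number of rises dropped to 3 under TMM or median-of-ratios scaling and without either vehicle library. HSPA1A and HSPA1B, the main inducible members, were not called.

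Cholesterol synthesis genes fell more often than they rose, 7 of 18 against 2. Over all genes tested 18% fell and 24% rose. SREBF2, the transcription factor of the pathway, fell from 179.9 and 172 to 80.9 and 74.6 CPM (log2 change -1.17 ± 0.19 SE, adjusted p = 4.08e-05) and LSS, lanosterol synthase, from 42.6 and 38.4 to 17.3 and 17.4 CPM (log2 change -1.18 ± 0.20 SE, adjusted p = 7.13e-05). MVK and IDI1 rose by 0.77 and 0.56. Among ABC transporters 7 of 18 fell and 2 rose, with 1 rise without vehicle replicate 1, and of the 11 that are well-expressed 5 fell and none rose. ABCC1, a drug efflux pump also known as MRP1, fell from 115 and 112 to 36.6 and 43.5 CPM (log2 change -1.48 ± 0.19 SE, adjusted p = 2.62e-06), and ABCB6 fell by 1.41. ABCB1, the P-glycoprotein gene whose product exports paclitaxel, was at 20.6 and 21.8 CPM and then 16.9 and 20.4 CPM and was not called (log2 change -0.18 ± 0.33 SE, adjusted p = 0.703). Of 18 NF-kappaB and cytokine genes 5 rose (27.8%) and 3 fell (16.7%), near the shares of all genes tested (24% and 18%). Of the 5 that are well-expressed 2 rose and 1 fell. Without vehicle replicate 1, 4 rose and 1 fell, and without vehicle replicate 2, 3 rose and 2 fell. PYCARD, which encodes the inflammasome adaptor ASC, rose from 0.394 and 0.210 to 9.61 and 6.35 CPM (log2 change 2.77 ± 0.21 SE, adjusted p = 6.5e-09), a gene that fell short of the well-expressed level. CXCL1 and IL32, listed as falls, had 1 and 0 reads in combination replicate 2, too few for a fold.

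**Figure D4:**
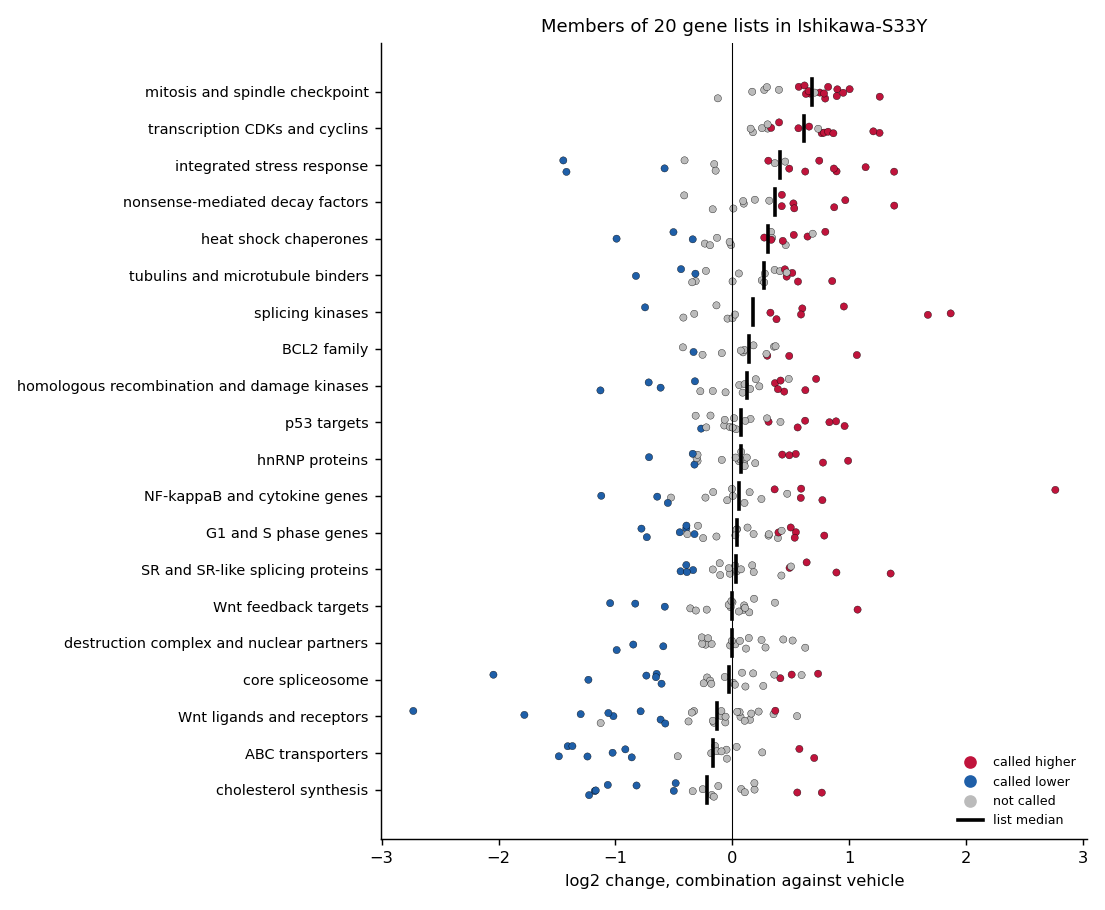
Log2 change between combination and vehicle (x axis) of each tested member of the 20 gene lists, 1 point per gene and 1 row per list, ordered by the list median (black bar); red and blue points were called higher and lower. Mitotic genes lie furthest right as a list (median 0.68, 14 of 20 called higher), and cholesterol synthesis and ABC transporter genes furthest left (medians -0.21 and -0.16, each with 7 of 18 called lower).

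Markers of endometrial epithelium fell almost throughout, in 11 of 12 genes, with a median change of -1.09 and none higher. Over all genes tested 18% fell and 24% rose, with a median of 0.06. The summed level of the markers went from 3722 and 3641 CPM to 1650 and 1559 CPM. The keratin KRT8 fell from 1616 and 1545 to 507 and 433 CPM (log2 change -1.75 ± 0.17 SE, adjusted p = 1.16e-07) and its partner KRT18 from 747 and 787 to 289.8 and 305 CPM (log2 change -1.36 ± 0.11 SE, adjusted p = 1.39e-08). CDH1, the E-cadherin gene, fell from 264 and 277 to 126 and 127 CPM (log2 change -1.09 ± 0.21 SE, adjusted p = 0.000261). The tight junction gene CLDN4 fell from 96.4 and 94.5 to 37.6 and 31.4 CPM (log2 change -1.45 ± 0.12 SE, adjusted p = 1.16e-08), and PAX8 and ESR1, which encode transcription factors of this epithelium, fell by 0.73 and 0.63. In each of these 11 of the 12 genes both combination libraries were below both vehicle libraries, against 36.4% of well-expressed genes. EPCAM was the exception, at 232 and 225 CPM and then 241 and 249 CPM (log2 change 0.10 ± 0.10 SE, adjusted p = 0.475). The fall counted 10 genes without combination replicate 2 and 11 under each scaling.

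Few markers of other cell types were called, and those were low. The stromal list summed to 716 and 718 CPM with the combination, of which COL1A1 made up 708 and 707 CPM (log2 change -0.69 ± 0.37 SE, adjusted p = 0.139). The endothelial list summed to 6.69 to 12.4 CPM and the immune list to 8.36 to 11.8 CPM, with HBB at 0 in all 4 libraries, and LUM, POSTN, PDGFRB, KDR, CDH5, TEK, CD3E and LYZ too low to be tested. Their part in the results was not tested. In bulk RNA, fewer cells of a type and less of its RNA per cell cannot be told apart.

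The single drugs were then set beside the combination. All of these comparisons share the vehicle libraries, so their values are given side by side. SM08502 alone raised 18.5% and lowered 10.6% of the 17011 genes. Paclitaxel alone gave no call (0%), with 122 genes at an unadjusted p under 0.05. That is a smaller share than the 0.05 that a well-calibrated test gives on average without any effect. The paclitaxel and vehicle replicates differed by 0.099 and 0.116 (log2, root mean square), against 0.297 for the combination, while the fit pooled 1 spread. The lack of calls thus does not show that paclitaxel had no effect. MYH9 stood at 736 and 773 CPM with paclitaxel, 154 and 129 CPM with SM08502 and 92.6 and 99.3 CPM with the combination, and CLK1 at 22.6 and 24.9, 61.5 and 60.3 and 71.5 and 66.2 CPM. For KRT8 the SM08502 libraries held 719 and 595 CPM and the combination libraries 507 and 433 CPM. Of the mitotic list 12 genes rose with SM08502 and 14 with the combination, and of the epithelial list 9 and 11 fell.

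A direct test of the combination against SM08502 called 7 well-expressed genes (0.0685%), 1 higher and 6 lower, with 1070 at an unadjusted p under 0.05. The median 95% interval of this difference, not adjusted for the number of genes, reached 0.32 to either side on the log2 scale. A call at an adjusted p needed more than that, so differences well above 0.32 could also go uncalled. Among the 6 genes named below the smallest called difference was 0.60. SLC16A3, a lactate exporter, stood at 86.00 and 83.7 CPM with vehicle, 44.2 and 33.8 CPM with SM08502 and 24.3 and 21.1 CPM with the combination (log2 difference -0.75 ± 0.13 SE, adjusted p = 0.0233 for the combination minus SM08502). DARS, an aspartyl-tRNA synthetase gene, stood at 54.7 and 50.8 and then 32.5 and 33.1 CPM (log2 difference -0.67 ± 0.13 SE, adjusted p = 0.0336). BCKDK, the kinase that restrains branched-chain amino acid breakdown, stood at 57.3 and 54.3 and then 34.7 and 32.8 CPM (log2 difference -0.71 ± 0.13 SE, adjusted p = 0.0233). In these 3 genes both combination libraries were below both SM08502 libraries. ANKZF1, a factor of ribosome quality control, was lower with the combination too (log2 difference -0.86 ± 0.16 SE, adjusted p = 0.0243), as was the epithelial marker CLDN4 (log2 difference -0.67 ± 0.12 SE, adjusted p = 0.0233), and the zinc finger gene ZNF180 was higher, at 27.95 and 34.8 against 20.3 and 20.1 CPM (log2 difference 0.60 ± 0.11 SE, adjusted p = 0.0336). None of these 6 calls was made without the shallow combination replicate 2 (adjusted p from 0.188 to 0.306) or with limma voom (0.135 to 0.242), although each gene kept its direction. Well-expressed genes called then numbered 1 and 0, and 4 with only well-expressed genes fitted. DARS was also not called without either vehicle library (0.0506). No member of the 20 lists was called. For CLK1 the unadjusted 95% interval of the difference ran from -0.12 to 0.46, for MYH9 from -1.45 to 0.35 and for TUBB3 from 0.01 to 0.45. The number of calls over all genes tested depended on 1 library: 22 with all libraries, 7 without combination replicate 2 and 1269 when only that shallow library stood for the combination.

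Against paclitaxel alone, 45.7% of well-expressed genes were called, 2521 higher and 2146 lower with the combination. The largest included CCDC150P1, CMYA5, DCUN1D2 and CTGF among the rises, and MYH9, EDN2 and FOXJ1 among the falls. CTGF, a secreted matrix protein gene and YAP target, stood at 48.8 and 48.5 CPM with paclitaxel and 155 and 197 CPM with the combination (log2 difference 1.83 ± 0.16 SE, adjusted p = 3.25e-08). The test of whether the combination departed from the sum of both drugs' effects called 0 of 17011 genes (0%) in limma, with 811 at an unadjusted p under 0.05. The median unadjusted 95% interval reached 0.45 to either side, so larger departures could also go uncalled. With limma voom on recovered reads 0 genes were called, and 339 were called when combination replicate 1 was left out.

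In Ishikawa cells, which the labels give as CTNNB1 wild type, the combination raised 11.6% and lowered 11.2% of the 17011 genes. The change in Ishikawa-S33Y minus that in Ishikawa was called for 12.8% of well-expressed genes, 764 more positive and 548 more negative in Ishikawa-S33Y. This balance depended on the scaling: 749 and 697 with TMM, 638 and 674 with median re-centring, and 638 and 783 with median-of-ratios scaling. In Ishikawa, PLCG2 held 3.12 and 2.35% of reads with vehicle and 4.69 and 5.03% with the combination, and its part was not tested. Paclitaxel was lower and SM08502 higher in Ishikawa-S33Y (6 and 85 nM against 11 and 80 nM), and library input was 500 ng against 350 ng, so line, dose and input cannot be told apart.

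CCDC150P1 rose in both lines, by 4.14 in Ishikawa-S33Y and 1.22 in Ishikawa (difference between lines 2.92 ± 0.48 SE, adjusted p = 0.000721). SLC1A3 rose from 9.56 and 9.73 to 34.9 and 34.4 CPM in Ishikawa-S33Y, whereas in Ishikawa it stood at 12.1 and 11.9 CPM with vehicle and 14.04 and 11.5 CPM with the combination (difference between lines 1.67 ± 0.18 SE, adjusted p = 3.14e-05). BNIP3, a mitophagy gene induced by hypoxia, fell from 202 and 206 to 60.9 and 40.1 CPM in Ishikawa-S33Y and stood at 51.4 and 46.2 and then 52.1 and 49.7 CPM in Ishikawa (difference between lines -2.08 ± 0.24 SE, adjusted p = 3.84e-05). FGFR3, a fibroblast growth factor receptor gene, fell from 32.7 and 28.6 to 5.70 and 5.01 CPM and stood at 5.92 and 7.37 and then 4.46 and 4.55 CPM in Ishikawa (difference between lines -1.85 ± 0.25 SE, adjusted p = 0.000169). For SLC1A3 and BNIP3 the groups were apart in Ishikawa-S33Y alone among the 2 lines. The growth factor gene PDGFA and the filaggrin gene FLG were also more negative in Ishikawa-S33Y (difference between lines -1.88 ± 0.34 SE, adjusted p = 0.00197 and difference between lines -2.05 ± 0.28 SE, adjusted p = 0.000204). FLG stood at 0.0617 and 0.153 CPM in the Ishikawa vehicle libraries, where 3 reads are 0.185 and 0.23 CPM, so it had no measurable level there to fall from. CMYA5 and the transcription factor gene POU6F1 were more positive (difference between lines 2.09 ± 0.56 SE, adjusted p = 0.0214 and difference between lines 1.84 ± 0.53 SE, adjusted p = 0.0309). The POU6F1 call was lost without any 1 of the 4 libraries (adjusted p from 0.0538 to 0.112), with no filter (0.0666), with the compared lines alone (0.0706) and with a pseudocount of 0.1 (0.303). That of CMYA5 was lost without either vehicle library (0.0601 and 0.072), with voom (0.205) and with a pseudocount of 0.1 (0.271).

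The lists that moved in Ishikawa-S33Y were read in the same way. Over all genes tested 11.6% rose and 11.2% fell in Ishikawa, against 24% and 18% in Ishikawa-S33Y. The difference between lines was called for 12.8% of well-expressed genes. Of the mitotic list 14 genes rose in Ishikawa-S33Y and 1 in Ishikawa, and for 5 of 20 the difference between lines was called, all more positive in Ishikawa-S33Y. Of the stress response list 8 rose in Ishikawa-S33Y and none in Ishikawa, with the difference called for 8 of 16, 6 more positive and 2 more negative. ATF4 changed by 1.14 in Ishikawa-S33Y and by 0.12 in Ishikawa (difference between lines 1.03 ± 0.15 SE, adjusted p = 0.000311). Transcription kinases and cyclins rose in 10 and in 7 cases, with no difference called. CLK1 changed by 1.87 in Ishikawa-S33Y and by 1.76 in Ishikawa, with no difference called (difference between lines 0.11 ± 0.20 SE, adjusted p = 0.773). Wnt feedback targets fell in 3 cases in Ishikawa-S33Y and in 8 in Ishikawa. The difference was called for 3 of 18, a share near that of all well-expressed genes. MYC was at 54.3 and 59.1 CPM with vehicle and 31.2 and 27.3 CPM with the combination in Ishikawa, a change of -0.93 against -0.03 in Ishikawa-S33Y (difference between lines 0.90 ± 0.18 SE, adjusted p = 0.00352). Of the epithelial markers 11 fell in Ishikawa-S33Y and 7 in Ishikawa, and KRT8, KRT18, KRT19, CLDN4 and ELF3 were more negative in Ishikawa-S33Y (for KRT18, difference between lines -1.10 ± 0.16 SE, adjusted p = 0.000232).

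**Figure D5:**
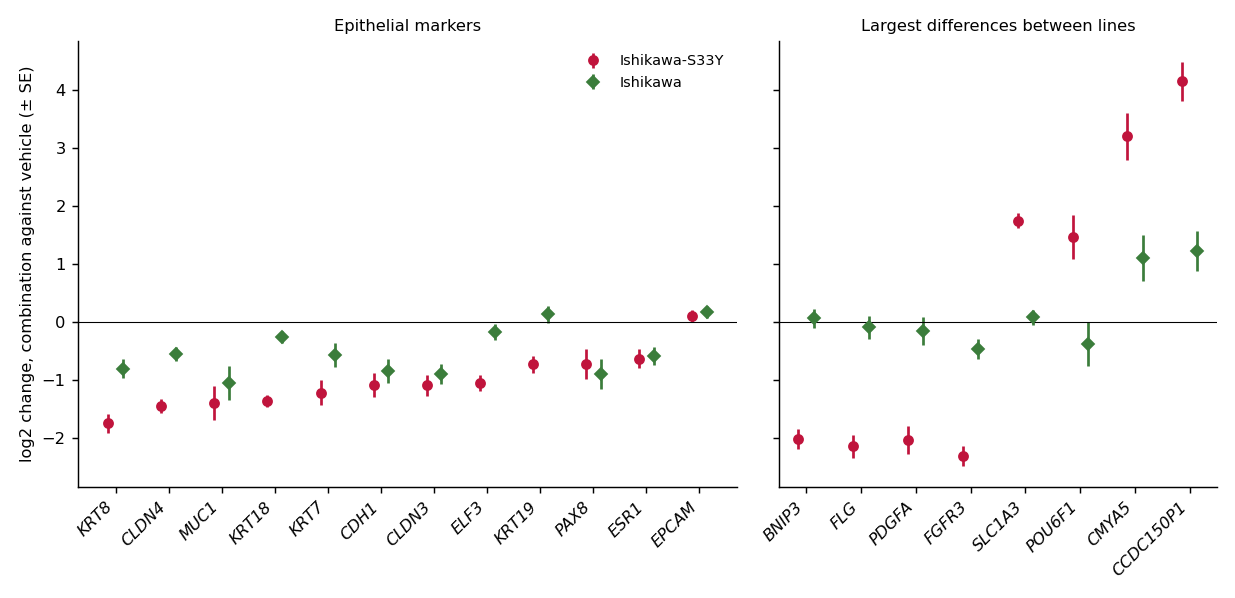
Log2 change between combination and vehicle with its SE (y axis) in Ishikawa-S33Y (red circles) and Ishikawa (green diamonds), for 12 epithelial markers (left) and the 8 genes with the largest called differences between lines (right). KRT18, KRT19 and ELF3 fall in Ishikawa-S33Y and lie nearer to 0 in Ishikawa, and BNIP3 and PDGFA fall in Ishikawa-S33Y while their Ishikawa values lie near 0; FLG was at or under the level of 3 reads in Ishikawa.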

How the data were processed

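Total RNA from the cell lines was depleted of ribosomal RNA and sequenced on a NovaSeq 6000, per the labels' protocols. Per the submitters' processing notes, bcl2fastq, kallisto, STAR and the build GRCh38 were used, with no role or version stated, and the strand of counting is not given in the sources used here. The authors deposited log10(CPM + 1) for 35238 genes in 32 libraries. These log10 values were taken back to CPM, which sum to 1000000 in each library, and whole reads were recovered for 100% of values (within 0.02 of a whole number), which gave the depths.

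Groups came from the titles and cell line and treatment labels. log2(CPM + 1) of 17011 genes (CPM above 1 in at least 2 libraries) was fitted in limma 3.58.1 (R 4.3.3) with 1 mean for each of 16 groups over all 32 libraries and an intensity trend (16 residual and 4.9 prior degrees of freedom). Tests were two-sided with Benjamini-Hochberg adjustment over the 17011 genes, and a call is an adjusted p under 0.05. Fold changes on this scale understate those of low genes. The fit was tested on simulated data. Spans, overlaps and promoters came from RefSeq tables of GRCh38.p14, and 77 of 138 named genes overlap another gene there.

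Named genes were the 12 largest well-expressed, called and non-overlapping changes each way without clone names, up to 3 called each way per list, a fixed set of genes, and up to 4 each way for the other contrasts. The members, lists and tests were chosen with earlier results of these data known. Some genes of the rule and the lists are counted but not reported here. Alternatives covered filters, pseudocount, scaling, trend, libraries fitted, a replicate block and leaving out each library. Limma voom and median-of-ratios scaling were chosen after seeing the data.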

Additional observations from a re-analysis of the deposited data

Results flagged for a closer look

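The change with the combination differed between Ishikawa-S33Y and Ishikawa for 1792 of the genes tested, by the interaction term of the limma model. Doses and RNA input differed between the lines as well, and their part was not tested. Differences are given as the log2 change in Ishikawa-S33Y minus that in Ishikawa. Only genes with a called difference are listed, and others of the largest changes, such as CLK1, are left out. The largest rises and falls were picked by their change in Ishikawa-S33Y, which favours a difference towards that line.

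Among the largest rises, the difference was 2.92 for CCDC150P1, 2.09 for CMYA5, 1.67 for SLC1A3, 1.29 for ZNF519, 1.10 for DCUN1D2, 0.95 for LCORL and 0.89 for TPM3P9. POU6F1, named for this contrast, differed by 1.84. Among the largest falls it was -0.87 for ATP2B4, -1.19 for CELSR1, -1.38 for CHST1, -1.57 for DYSF, -0.98 for EDN2, -1.24 for FOXJ1, -0.86 for ITGB5 and -1.34 for LOXL4. BNIP3, FGFR3, FLG and PDGFA differed by -2.08, -1.85, -2.05 and -1.88, with FLG at or under the level of 3 reads in the Ishikawa vehicle libraries. The epithelial markers KRT8, KRT18, KRT19, CLDN4 and ELF3 differed by -0.95, -1.10, -0.86, -0.90 and -0.88.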

How the results depend on the processing

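Of 2056 recomputed changes of the 138 named genes, 1915 kept their direction and their side of the threshold, 126 lost the call, 9 gained one and 6 changed sign. The gained calls were 6 of AXIN2 and 1 each of CDKN1A, CTNNB1 and MCL1. The sign changes were in genes not called with all libraries: CDKN1A (-0.10 without combination replicate 1, 0.41 and called without replicate 2), LEF1 (-0.15 and 0.36) and MYC (0.16 and -0.22) likewise, LEF1 (-0.03) without vehicle replicate 1, and LEF1 (-0.008) and CTNNB1 (-0.00) under median-of-ratios scaling; why was not tested. Of 345 recomputed changes of the 23 largest rises and falls, 340 kept the call and none changed sign, and the 5 lost calls were all of PYURF. At least 2-fold rises numbered 181 and 168 under TMM and median-of-ratios scaling and 190 at a mean of at least 20 CPM. Genes called between the combination and SM08502 numbered 22, but 183 with no filter, 4 with only well-expressed genes fitted, 6 with a pseudocount of 0.1, 37 with median re-centring, 136 with quantile normalization, 39 with TMM, 41 with median-of-ratios scaling, 34 without a trend, 243 with the line fitted alone and 1 with voom. Departures from additivity numbered 4 with no filter and 3 with median re-centring or quantile normalization. Differences from Ishikawa numbered 872 with the compared lines alone. Leaving out 1 library gave 2838 to 3684 rises and 2108 to 3023 falls over all genes tested, 2012 to 2426 and 1545 to 1848 among well-expressed genes, and 294 to 368 and 547 to 643 at 2-fold. It gave 7 to 1269 calls against SM08502, 5245 to 6456 against paclitaxel, 0 to 339 for additivity and 814 to 2466 for the difference from Ishikawa, lowest without vehicle replicate 2 (814) and vehicle replicate 1 (911). An arm left with 1 library was assumed to vary like the other groups. Same-numbered samples did not deviate together (correlation of replicate differences -0.06 to 0.11), and a replicate block gave 4103 rises and 3136 falls. The planned edgeR and DESeq2 fits were not run, because the deposited unit was log10 CPM. Depth limited genes with few reads in combination replicate 2.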

Other observations

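Gene families defined by their symbols after the values were seen are described here with no test. Among 319 well-expressed ZNF genes, which encode zinc finger proteins, 196 rose (61.4%) and 10 fell with the combination, with a median change of 0.56, against 26.9% and 21.3% of all well-expressed genes. The number that rose was between 169 and 207 under the 4 scalings, and it was 176 without either combination library. In Ishikawa 74 of them rose and 8 fell, against 11.6% and 11.2% of all genes tested in that line. Of 38 HIST histone genes 19 fell and 2 rose, with 11 falls without combination replicate 2.

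Some families of matrix and adhesion genes had more falls than rises. Of 15 COL collagen genes 9 fell and none rose, with a median of -0.74, against 21.3% of all well-expressed genes that fell. All 15 had both combination libraries below both vehicle libraries, against 36.4%. The collagen falls numbered 3 without vehicle replicate 1, 4 without combination replicate 1 and 6 without either other library. Of 7 LAM laminin genes 6 fell, with 3 falls without vehicle replicate 1 or either combination library and 4 without vehicle replicate 2. Of 16 ITG integrin genes 7 fell, 1 rose and 8 were not called, and the rise was called in 1 of 4 fits that left out 1 library. Of 6 PLXN plexin genes 4 fell, with 2 falls without vehicle replicate 1 or combination replicate 2. In Ishikawa 8 collagen, 4 laminin, 9 integrin and 4 plexin genes fell, against 11.2% of all genes tested in that line. Of 78 RPL and RPS ribosomal protein genes 8 rose (10.3%) and 1 fell (1.3%), against 26.9% and 21.3% of all well-expressed genes. The number of these that rose went from 4 to 18 between scalings.

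By RefSeq span, 25.7% of the longest quintile of well-expressed genes (100.2 kb or more) fell and 20.0% rose. In the middle quintile (25.4 to 47.5 kb) 19.7% fell and 31.2% rose, and in the shortest (0.4 to 11.6 kb) 22.3% fell and 24.3% rose, so both ends of the range held fewer rises than the middle. Among 55 transcribed pseudogenes 54.5% rose and 1.8% fell, against 26.9% and 21.3% of all well-expressed genes. Among 25 other pseudogenes 28.0% rose and 4.0% fell. In the fifth of well-expressed genes lowest with vehicle (1.2 to 18.3 CPM) 36.3% rose and 10.4% fell. Some of these reached the mean of 10 CPM only through the treated libraries.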
